A study of Homo sapiens with 6 samples.

Results

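The insulin-like growth factor (IGF) genes described here are the ligands IGF1 and IGF2, the 7 genes IGFBP1 to IGFBP7 that encode IGF binding proteins, and PAPPA, a protease of binding proteins. They were taken by gene symbol from a table of 58735 genes, in which the 10 symbols correspond to 11 Ensembl identifiers because IGF2 has 2 entries. RNA-Seq was performed with BT549 cells, a long-established human line of basal-like breast cancer. In 3 libraries the cells had received DMSO, the solvent control, and in the other 3 they had received AS1842856, a small molecule that binds unphosphorylated FOXO1 and hinders its binding to DNA, for 48 h. The labels give a dose of 200 nM, and the study's methods give a higher one, which was not resolved here. All libraries came from the same unmodified line, and the methods call the 3 libraries of each group biological replicates.

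IGF1 and IGF2 are secreted peptides that act through the receptor IGF1R, which signals to PI3K and AKT. AKT in turn phosphorylates FOXO1 and keeps it out of the nucleus. In tissue fluids most IGF is held by binding proteins, which keep the ligand from the receptor and can also act on cells by themselves. IGFBP1 is a classic FOXO1 target gene of the liver, where a forkhead site in its promoter makes it respond to insulin. PAPPA cleaves IGFBP4 and releases the ligand bound to it, and the stanniocalcins STC1 and STC2 inhibit PAPPA.

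With AS1842856, 4 of the 7 binding protein genes fell, which were IGFBP3, IGFBP4, IGFBP6 and IGFBP7. IGFBP3 and IGFBP4 dropped to 24.8% and 27.1% of their DMSO levels, and IGFBP7 and IGFBP6 to 52.5% and 59.6%. PAPPA did not pass the test. The other 3 binding protein genes and both ligands had too few reads to be tested. The genes that encode the PAPPA inhibitors STC1 and STC2 rose. Of 14338 genes tested with edgeR's quasi-likelihood test, 56% were called at an adjusted p under 0.05, 28.4% lower and 27.6% higher, so that a fall as such is common in these data. The fall of IGFBP3 was deeper than most, since 1.48% of the genes tested had a lower log2 fold change. That share was 1.66% for IGFBP4, 7.02% for IGFBP7 and 9.53% for IGFBP6.

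The libraries held between 15289500 and 22981832 counts. TMM factors, which scale the libraries to each other, lay between 0.995 and 1.01. Levels of 1 gene across libraries are given as TMM-normalized CPM, counts scaled to library size. Levels of different genes are compared only as FPKM, which is divided by gene length. The marker sums in CPM compare the groups and not the genes, and long or abundant genes weigh most in them. All 5 markers of mesenchymal, basal-like cells were expressed. Of these 3 fell, which were VIM, CD44 and CDH2, with log2 fold changes of -0.34, -0.45 and -0.19. The other 2, FN1 and ZEB1, rose with log2 fold changes of 1.13 and 0.50. The summed level of the 5 was between 2814 and 2904 CPM in DMSO and between 2861 and 2894 CPM with AS1842856. This even sum thus holds opposite changes. Of 8 markers of luminal epithelium, ESR1 and CDH1 had at most 1 count in any library. The summed level of these 8 went from between 168.8 and 175.4 CPM in DMSO to between 91.4 and 97.6 CPM. Within it the luminal keratins KRT8 and KRT18 fell, with log2 fold changes of -3.31 and -3.30, ERBB2 also fell and GATA3 rose. Of 6 blood and endothelial markers, 3 had no counts, and the summed level went from between 1.02 and 2.02 CPM to between 3.54 and 4.65 CPM. PTPRC, the 1 gene of them that was tested, rose and averaged 1.15 ± 0.432 CPM in DMSO and 3.15 ± 0.479 CPM with AS1842856 (SD, n = 3 per group). The part of these markers in the results below was not tested. In bulk RNA, fewer cells of a kind and less RNA per cell cannot be told apart.

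The sequences upstream of the start sites are shown for 4 of the 5 genes that could be tested, because the compound acts on a forkhead factor and 3 of the 4 fell. They are RefSeq windows (GRCh38.p14) of 250 bases that end just before the start, read 5′ to 3′ on the strand of the gene. RefSeq windows were found for 7 of the 10 genes, and not for IGFBP1, IGFBP7 and IGF2. Capitals mark the forkhead motif GTAAACA or its reverse complement TGTTTAC, and the TATA box core TATAAA. Bases annotated as untranslated region in GENCODE were left out except for IGFBP6, which shortens the window of IGFBP3 by 2 bases. The window of IGFBP6 is annotated in that way over 231 of its bases. Only the motif with 10 bases on either side is shown there, a stretch that itself lies within the annotated bases.
IGFBP3: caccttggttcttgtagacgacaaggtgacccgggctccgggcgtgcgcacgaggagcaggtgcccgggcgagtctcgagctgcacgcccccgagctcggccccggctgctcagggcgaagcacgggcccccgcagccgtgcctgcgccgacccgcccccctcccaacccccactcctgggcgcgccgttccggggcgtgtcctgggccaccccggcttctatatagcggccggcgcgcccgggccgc
IGFBP4: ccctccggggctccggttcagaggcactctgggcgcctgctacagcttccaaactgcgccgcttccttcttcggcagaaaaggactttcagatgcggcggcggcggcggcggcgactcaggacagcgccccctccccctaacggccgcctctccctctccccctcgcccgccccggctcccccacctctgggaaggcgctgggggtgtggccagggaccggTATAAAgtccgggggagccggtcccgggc
IGFBP6: aatttgggaaGTAAACAgaaactggaa
PAPPA: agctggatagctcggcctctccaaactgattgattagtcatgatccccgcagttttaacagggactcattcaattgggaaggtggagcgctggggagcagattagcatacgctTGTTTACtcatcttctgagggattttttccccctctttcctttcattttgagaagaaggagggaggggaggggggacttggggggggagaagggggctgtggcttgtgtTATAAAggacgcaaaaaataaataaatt
The IGFBP3 window and all but the first bases of the IGFBP6 window lie inside the genes as GENCODE draws them, since its longest transcripts start further upstream than the RefSeq start. The stretches are chr7:45921275-45921522 for IGFBP3 on the minus strand, and chr17:40443200-40443449 for IGFBP4, chr12:53097471-53097497 for IGFBP6 and chr9:116153541-116153790 for PAPPA on the plus strand. All 3 motifs, which do not overlap each other, were searched on both strands of the full windows.

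The forkhead letters stood at positions -186 to -180 before the IGFBP6 start and, in reverse, at -137 to -131 before the PAPPA start. IGF1 also held them, at -247 to -241 in the first of its windows. In the windows of IGFBP3 and IGFBP4 the letters were absent, as in most windows of all genes. Among 35116 such windows of all genes, 2.98% held this motif. The insulin response element core CAAAACA, or TGTTTTG on the other strand, was in none of the windows of these genes, against 4.30% of all windows. TATAAA stood at -29 to -24 before the IGFBP4 start and at -28 to -23 before the PAPPA start, and 10.7% of all windows held it. The windows of IGFBP3 and IGFBP4 were rich in G and C, with 76.0% and 71.6% against a median of 58.0% over all windows, and that of PAPPA was poorer, with 48.0%. A match is a description of the letters and does not show that a factor binds there.

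IGFBP3 (ENSG00000146674, chromosome 7 from 45912245 to 45921874) encodes the main carrier of IGF in blood, which most tissues also make. Its level was 478.7, 488.7 and 449.5 CPM in the DMSO libraries A, B and C, and 120.7, 116.4 and 114.2 CPM with AS1842856. Every treated library thus lay far below every control library. The group means were 472.3 ± 20.4 and 117.1 ± 3.34 CPM (SD, n = 3 per group). Expressed as log2 of AS1842856 over DMSO, the change was -2.01 ± 0.04 (here and below ± SE from edgeR), at an adjusted p of 3.45e-133. IGFBP3 was among the most abundant transcripts of the cell line, since 2.43% of the genes tested had a higher mean FPKM in DMSO. No other annotated gene shares exon bases with it.

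IGFBP4 (ENSG00000141753, chromosome 17 from 40443461 to 40457731) encodes a binding protein that mostly restrains IGF action and is the main substrate of PAPPA. It had 10.3, 10.9 and 9.41 CPM in DMSO and 2.94, 2.14 and 3.30 CPM with AS1842856. The treated libraries spread more, relative to their mean, than those of IGFBP3, but the groups did not overlap. On the log2 scale the change was -1.88 ± 0.16 (SE), at an adjusted p of 5.44e-25. It rested on between 49 and 59 counts in each treated library and between 167 and 226 in each control library.

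IGFBP7 (ENSG00000163453, chromosome 4 from 57030773 to 57110385) encodes a relative of the family that binds IGF only weakly and is deposited in the matrix around vessels. Its DMSO libraries had 66.4, 58.7 and 54.2 CPM, and its AS1842856 libraries had 31.1, 29.7 and 33.8 CPM. Again no treated library reached the lowest control. The means were 59.8 ± 6.13 and 31.5 ± 2.07 CPM (SD of 3 libraries each), a log2 change of -0.93 ± 0.06 (SE) at an adjusted p of 9.95e-33. Of its 1930 exon bases, 270 are also exon of POLR2B on the opposite strand, an RNA polymerase subunit gene that held 495% as many counts. Whether counting used strand is not stated, so part of the IGFBP7 counts is uncertain. POLR2B itself went the other way, by 0.12 on the log2 scale, at an adjusted p of 0.00451.

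IGFBP6 (ENSG00000167779, chromosome 12 from 53097436 to 53102345) encodes the binding protein that prefers IGF2 over IGF1. It had 91, 65 and 68 counts in the DMSO libraries, and 37, 57 and 43 in the treated ones. Scaled to depth these were 4.14, 4.23 and 3.65 CPM against 2.22, 2.49 and 2.41 CPM. The groups did not overlap either in counts or after scaling. The log2 change was -0.75 ± 0.21 (SE), the least precise of the 4, at an adjusted p of 0.00121.

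PAPPA (ENSG00000182752, chromosome 9 from 116153804 to 116402322) had 18.6, 17.1 and 16.6 CPM in DMSO and 16.8, 17.6 and 16.6 CPM with AS1842856. The libraries of the groups overlapped. Its log2 change was -0.04, with a 95% interval from -0.23 to 0.14 and an adjusted p of 0.734. A change of the size seen in IGFBP6 lies outside this interval. PAPPA-AS1, an antisense gene that lies within PAPPA, had no counts. All of its exon bases are also exon of PAPPA, where they make up 21.2% of the exon bases. The use of strand in counting is not stated, so reads there may have been dropped. The level of PAPPA, and ratios of other genes to it, are uncertain to that extent.

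**Figure D1:**
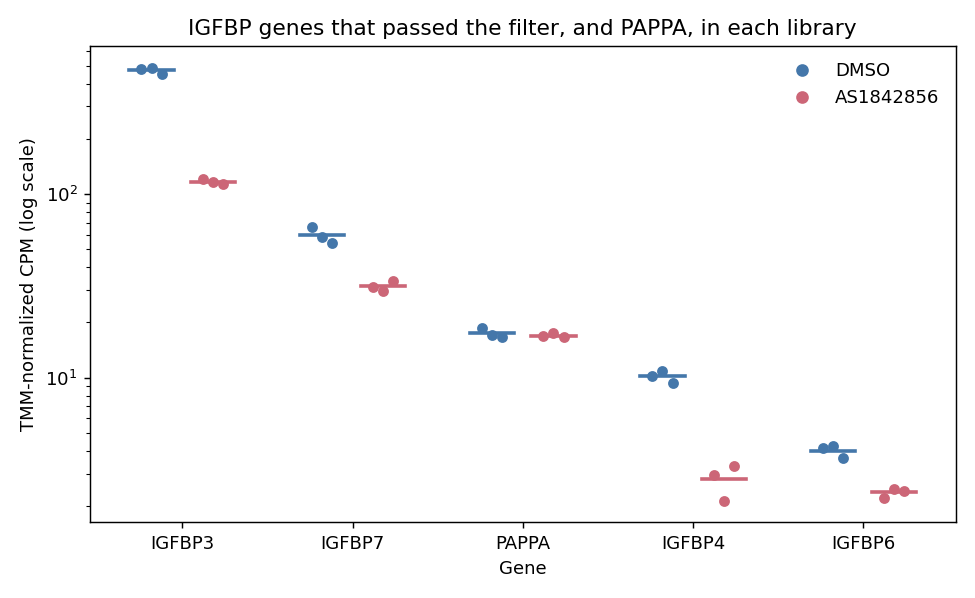
Level of the 4 binding protein genes with enough reads to be tested, and of PAPPA, in TMM-normalized CPM on a log axis. Points are libraries (blue DMSO, red AS1842856, replicates A to C from left to right) and bars are group means with n = 3; the red points of IGFBP3, between 114.2 and 120.7, lie below the blue ones, between 449.5 and 488.7, whereas those of PAPPA overlap.

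In 4 of the 5 genes tested the groups did not overlap, all of them lower with AS1842856. Over all genes tested the groups did not overlap in 59.9%, and in 30.3% they did so with the treated group lower. To compare the depth of the fall among the 4 binding proteins, the log2 ratio of each pair of genes was taken in each library, which gave 6 pairs. The intervals given for them are t intervals, which assume normally distributed ratios, unlike the permutation p beside them. These intervals are not adjusted for the 6 pairs, and the comparison was added after the data were seen. The log2 change of IGFBP3 minus that of IGFBP7 was -1.09 (95% interval -1.36 to -0.82), and minus that of IGFBP6 it was -1.26 (95% interval -1.47 to -1.04). For IGFBP4 the same differences were -0.97 (95% interval -1.40 to -0.53) and -1.13 (95% interval -1.74 to -0.53). In these 4 pairs the ratios of the groups did not overlap, with an exact two-sided permutation p of 0.1 each, the smallest that 3 against 3 libraries allow, and 0.15 after Benjamini-Hochberg adjustment, so that no pair could pass a threshold of 0.05. IGFBP3 and IGFBP4 differed by -0.13 (95% interval -0.66 to 0.41, exact permutation p = 0.7), and IGFBP6 and IGFBP7 by 0.17 (95% interval -0.11 to 0.44, exact permutation p = 0.3). Ratios overlapped for both of these pairs, and their intervals leave room for differences in either direction.

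Per length, IGFBP3 had 104.3, 106.2 and 97.9 FPKM in DMSO, and IGFBP7 followed with 34.3, 30.2 and 28.0 FPKM. IGFBP4 was next with a range from 4.26 to 4.90 FPKM, before IGFBP6 with 2.70 to 3.12 and PAPPA with 1.43 to 1.61. No neighbours in this order overlapped in DMSO. With AS1842856 IGFBP3 had 26.3, 25.3 and 24.8 FPKM, IGFBP7 had 16.1, 15.3 and 17.4, and IGFBP6 had 1.64, 1.84 and 1.78. IGFBP4, with 1.33, 0.969 and 1.49 FPKM, then lay below IGFBP6 in every library and could no longer be told from PAPPA, which had between 1.42 and 1.51 FPKM. The ratio of IGFBP4 to PAPPA went from 3.07 ± 0.235 to 0.870 ± 0.208 (SD, n = 3 per group).

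Summed over the 7 binding protein genes, FPKM went from 141.2 ± 7.31 to 44.8 ± 1.13, which is 31.7% of the DMSO level. IGFBP3 made up 72.8% ± 1.32 of this sum in DMSO and 56.9% ± 2.06 with AS1842856. The share of IGFBP7 went from 21.8% ± 1.40 to 36.3% ± 1.69 and that of IGFBP6 from 2.10% ± 0.0619 to 3.92% ± 0.311. IGFBP4 kept a small share, 3.26% ± 0.116 before and 2.81% ± 0.535 after treatment, with a range from 2.23% to 3.28% that overlapped the DMSO range from 3.18% to 3.39%. Thus IGFBP7 gained share in the sum although its own level fell. These shares describe mRNA per length and not the secreted proteins.

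**Figure D2:**
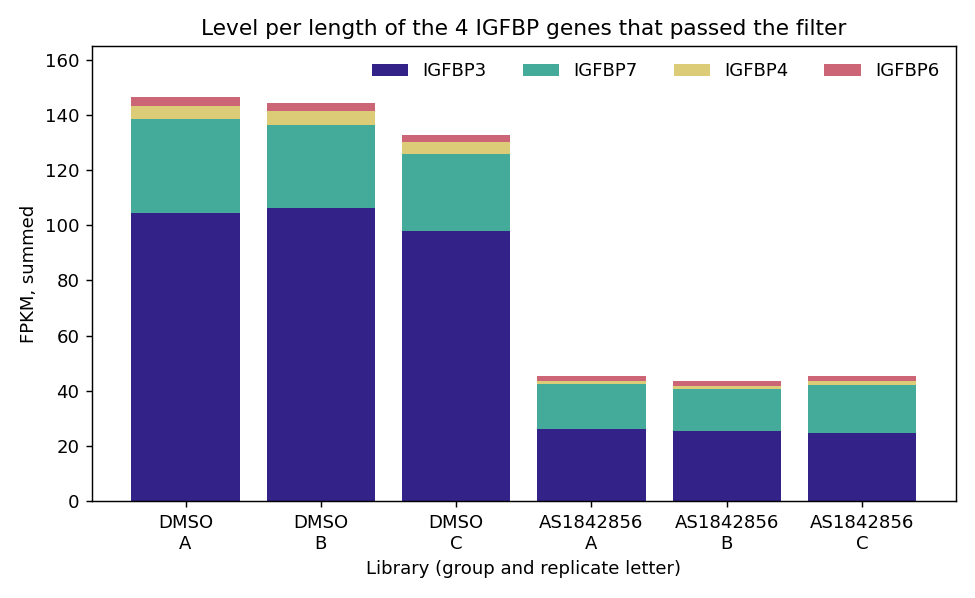
Deposited FPKM of the 4 binding protein genes that passed the filter, stacked for each library, with no error bars because each bar is 1 library. The DMSO bars reach 132.8 to 146.3 and the AS1842856 bars 43.5 to 45.5, and the IGFBP3 part shrinks most.

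IGFBP1, IGFBP2, IGFBP5, IGF1 and both IGF2 entries did not pass the filter on low counts. IGFBP2, which binds IGF2 preferentially, had 0, 4 and 2 counts in DMSO and 3, 3 and 1 with AS1842856. IGFBP1, the FOXO1 target of liver, had 1 count in all libraries together, in a DMSO library. IGFBP5, a binding protein that attaches to matrix, and the ligand IGF1 also had 1 count each, both in AS1842856 libraries. At this depth 3 counts, the limit that a count of 0 allows, correspond to between 0.131 and 0.196 CPM. Where a library had a count of 0, a level below that limit could not be detected. The limit covers counting error only and does not bound IGFBP2, which reached 4 counts in DMSO library B.

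IGF2, the fetal growth ligand, had no counts under either identifier in any library. This cannot be read as absence. Both entries overlap each other and INS-IGF2 on the same strand, and only 26.3% and 10.0% of their exon bases are not shared with another gene on that strand. Counting tools often drop reads that fall on more than 1 gene, and the tool used is not stated. INS, INS-IGF2 and IGF2-AS, as well as H19, the imprinted RNA gene next to IGF2, had no counts either. IGF1 overlaps the long RNA gene HELLPAR on the opposite strand over 82.4% of its exon bases, and HELLPAR held 226 counts in all libraries together.

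Of the 7 binding protein genes, 4 lie in neighbouring pairs, and IGFBP4, IGFBP6 and IGFBP7 each lie on a chromosome of their own. IGFBP1 ends 18.6 kb from IGFBP3 on chromosome 7, and IGFBP2 lies 7.67 kb from IGFBP5 on chromosome 2. In the first pair, IGFBP3 was among the most abundant genes and IGFBP1 had next to no reads, and in the second pair neither gene passed the filter.

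Other genes of the IGF axis were taken from lists of 37 genes, of which 25 passed the filter. Of these 25, 11 fell, 7 rose and 7 did not pass the test, which makes 18 called. Over all genes tested 56% were called, 28.4% lower and 27.6% higher, so that these counts are not read as particular to the IGF axis. The median log2 fold change of the 25 was -0.07, beside 0.00 over all genes tested.

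Both genes of PAPPA inhibitors rose. STC1, a stanniocalcin, had 75.2, 81.0 and 82.0 CPM in DMSO and 150.1, 171.5 and 141.1 CPM after treatment, a log2 change of 0.96 ± 0.05 (SE) at an adjusted p of 2.03e-26. STC2, its relative that forms a covalent complex with PAPPA, went from 242.9, 210.4 and 231.3 to 383.6, 375.9 and 386.2 CPM, a log2 change of 0.74 ± 0.04 (SE) at an adjusted p of 1.04e-49. In both genes every treated library exceeded every control. Per length, STC2 stood at 24.7 ± 1.54 times the FPKM of PAPPA in DMSO and at 42.5 ± 1.90 times with AS1842856 (SD, n = 3 per group), and STC1 at 12.7 ± 1.33 and 25.3 ± 1.76 times. PAPPA2, a paralog that cleaves IGFBP5 and IGFBP3, was near the limit of the filter, with 0.655 ± 0.0613 and 1.16 ± 0.436 CPM, and did not pass the test (log2 fold change 0.77, standard error 0.39). IGFALS, which encodes the third partner of the complex of IGF and IGFBP3 in blood, had at most 10 counts in any library and was not tested.

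Among 7 other proteases that cleave binding proteins, 4 were tested and 2 were called, both lower. Of all genes tested 56% were called, 28.4% lower, so that this count is not read as particular to these proteases. ADAM12, a membrane protease that cleaves IGFBP3 and IGFBP5, went from 125.6 ± 7.29 to 94.5 ± 0.960 CPM (log2 fold change -0.41). CTSD, which encodes the lysosomal protease cathepsin D, went from 54.2 ± 1.33 to 41.9 ± 4.31 CPM (log2 fold change -0.37). CTSD shares 41.7% of its exon bases with another gene on its strand, which held 0.0916% as many counts. A gene on the opposite strand shares 15.8% of them and held 0.825% as many counts. Only 47.3% of the CTSD exon bases are shared with no other gene. Reads on the shared bases may have been dropped, so the level of CTSD is uncertain to that extent. HTRA1, a secreted serine protease, had 21.5 ± 0.0611 and 20.5 ± 1.37 CPM and did not pass the test.

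The next list holds genes of proteins that share an N-terminal domain with the IGF binding proteins. Of its 10 genes 6 were tested, 4 fell and 1 rose. Over all genes tested 56% were called, 28.4% lower and 27.6% higher, and the number of genes here is small. CTGF and CYR61, matricellular proteins of the CCN family that respond to cell tension and YAP, fell from 442.9 ± 23.4 to 83.3 ± 3.83 CPM and from 911.5 ± 63.3 to 193.3 ± 3.82 CPM (SD, n = 3 per group). Their log2 fold changes were -2.41 and -2.24, beside -2.01 of IGFBP3, and the difference to IGFBP3 was not tested. CRIM1, a membrane protein that binds BMP ligands, had a log2 change of -0.96 and fell from 236.4 ± 5.10 to 121.5 ± 5.86 CPM. NOV, a further CCN family gene, went the opposite way, from 5.41, 5.92 and 4.84 CPM to 20.7, 25.0 and 23.6 CPM, a log2 change of 2.11 ± 0.11 (SE) at an adjusted p of 1.62e-47. The ratio of CYR61 to NOV in FPKM went from 185.2 ± 20.0 to 9.18 ± 1.05. WISP2 was at 9, 4 and 10 counts in DMSO and at 0 in each treated library, and it did not pass the filter. Its mean level in DMSO was 2.52-fold that of 3 counts per treated library. This ratio leaves out the counting error of the few DMSO counts.

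All 6 receptor and substrate genes that could be tested were called, 3 lower and 3 higher, where 56% of all genes tested were called. INSR, the insulin receptor gene, had 15.2 ± 1.39 and 8.91 ± 0.199 CPM, a log2 fold change of -0.78. IGF1R, the receptor of both ligands, was named after its values were seen, and it fell from 18.3 ± 1.03 to 14.0 ± 1.52 CPM (log2 change -0.39, adjusted p = 0.000211). IGF2R, which takes IGF2 up for degradation, rose from 236.2 ± 17.5 to 382.7 ± 11.6 CPM (log2 fold change 0.70). The adaptor genes IRS1 and IRS2, which pass the signal of both receptors to PI3K, also rose, with log2 fold changes of 1.30 and 1.03. IRS1 had 45.7, 42.9 and 42.2 CPM in DMSO and 104.1, 108.7 and 110.0 CPM with AS1842856.

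**Figure D3:**
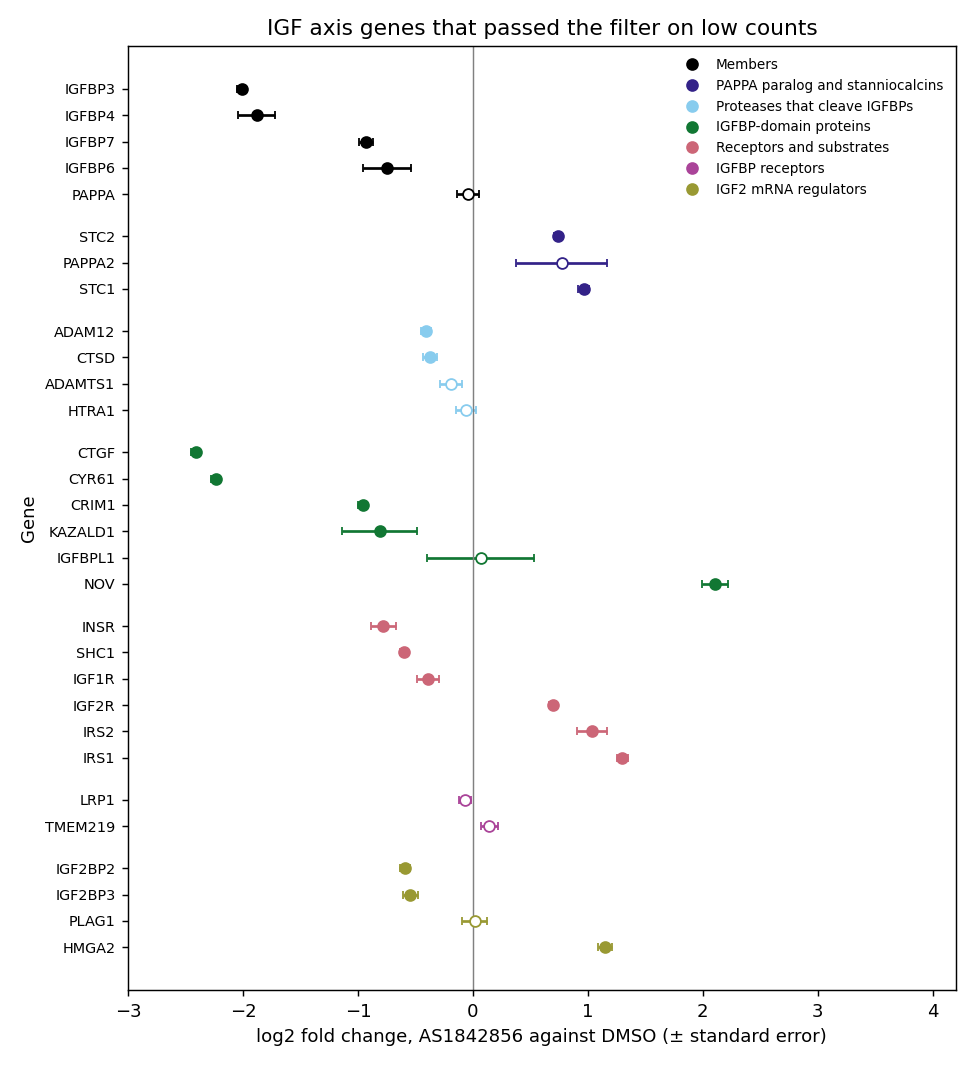
Log2 fold change of AS1842856 against DMSO with its standard error for the 5 tested members and 25 other genes of the IGF axis, grouped by role. Filled points passed the test (adjusted p under 0.05) and open ones did not; the 4 binding protein genes lie between -2.01 and -0.75, PAPPA at -0.04, and STC1 and STC2 at 0.96 and 0.74.

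The genes around the members were examined within 250 kb of either end. Their counts stand beside the 56% of all genes tested that were called, 28.4% lower and 27.6% higher, and the numbers of neighbours are small. Around IGFBP3, 3 genes were tested and did not pass the test: ADCY1 with a log2 change of 0.72, SEPT7P2 with -0.16 and GTF2IP13 with 0.02. Around IGFBP7, POLR2B and NOA1 rose, by 0.12 and 0.56 on the log2 scale, and REST did not pass the test. Around IGFBP4, 5 of 7 genes were called, 4 lower and 1 higher, with a median log2 fold change of -0.28 against -1.88 of IGFBP4. The nearest of them, the topoisomerase gene TOP2A, lies upstream at a gap of -25.5 kb and had a log2 change of -0.54. Around IGFBP6, 12 of 16 genes were called, 5 lower and 7 higher. Among those that rose were SPRYD3, at a gap of -18.0 kb with 0.26, and the translation factor gene EIF4B, at -55.2 kb with 0.63. The keratin genes KRT18 and KRT8, at gaps of -144.5 and -147.5 kb, had log2 changes of -3.30 and -3.31. SP7, an osteoblast transcription factor gene at a gap of 224.2 kb, had no counts in DMSO. In the treated libraries it reached 22, 31 and 25, with a mean level 8.25-fold that of 3 counts per DMSO library. This ratio leaves out the counting error of the treated counts.

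**Figure D4:**
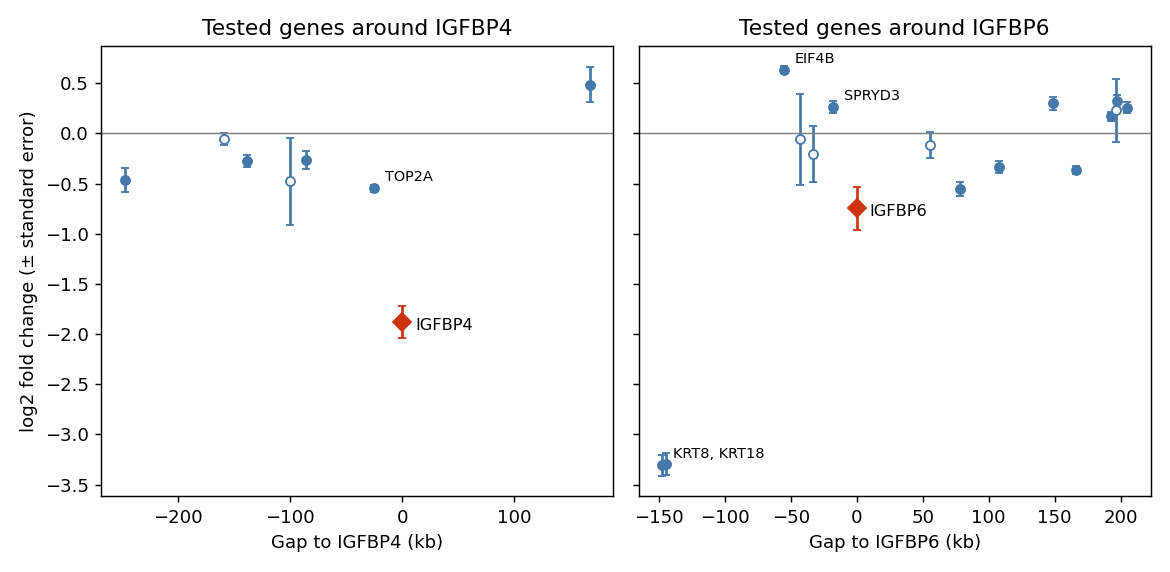
Log2 fold change with its standard error of tested genes within 250 kb of IGFBP4 (left) and IGFBP6 (right), against the gap to the member in kb along the chromosome. Red diamonds are the members, filled blue points passed the test and open ones did not, and SP7 is left out because it had no counts in DMSO; KRT8 and KRT18 lie at -3.31 and -3.30, far below the other neighbours.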

How the data were processed

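RNA-Seq was performed with BT549 cells, 3 libraries with DMSO and 3 with AS1842856, grouped by the treatment in the labels. Per the study's methods reads were mapped with STAR. The authors deposited counts for each gene without normalization. A second table that the authors deposited gives FPKM, which is divided by gene length and library size, for 25015 genes, the lowest with 2 counts over all libraries. The submitters' processing notes also list CASAVA, Bowtie 0.12.2, GRCh38 and hg38. The counting tool and the use of strand are not given in the sources used here. Symbols and positions came from GENCODE release 29 (Ensembl 94, GRCh38), which held all 58735 identifiers.

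The tests used edgeR 4.0.16 under R 4.3.3. A filter on low counts, filterByExpr (minimum count 10, minimum total 15), left 14338 genes. Libraries were scaled by TMM and compared with glmQLFit (robust) and glmQLFTest without a block, with Benjamini-Hochberg adjustment over all genes tested and a threshold of 0.05. The standard error was the log2 fold change divided by the square root of F. The common biological coefficient of variation was 0.0374. Ratios of genes were compared by exact permutation over libraries, a comparison added after the data were seen. The intervals of these differences are t intervals with the variance pooled over both groups. Scripts were tested on simulated data.

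The members and lists were chosen with earlier results of these data known. Named genes were all members and, of each other list, up to 4 called genes with a mean of at least 1 CPM and the largest change. IGF1R, the list genes that did not pass the test and other genes that overlap or lie near a member were named outside this rule and were not recomputed under the alternatives. Alternatives were DESeq2 1.42.0, other scalings and filters, a replicate block, limma 3.58.1 on deposited FPKM, and each library left out. No replicates were duplicates of each other, as their chi-square was 2.36 to 3.27 times its degrees of freedom. Intervals and limits cover counting error or the spread between libraries only.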

Additional observations from a re-analysis of the deposited data

How the results depend on the processing

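Under the 9 alternatives that kept all libraries, and also when any 1 library was dropped, 4 members were called, and IGFBP3, IGFBP4, IGFBP6 and IGFBP7 kept their direction and their call in each. With each library left out the log2 fold change ran from -2.05 to -1.99 for IGFBP3, from -2.03 to -1.70 for IGFBP4 and from -0.81 to -0.71 for IGFBP6. IGFBP6 had the largest adjusted p of the 4, up to 0.0148 with DESeq2. On the log2(FPKM + 1) scale, which understates changes of low genes, IGFBP4 changed by -1.31. PAPPA ran from -0.083 without DMSO replicate C to 0.011 without DMSO replicate A, where it changed sign, and did not pass the test under any alternative (adjusted p from 0.537 to 0.944). The count of other IGF axis genes called, 18, ran from 17 to 19, and that of all genes, 8029, from 6453 to 8030 with all libraries and from 7427 to 7678 with each library left out. With the replicate block the counts were 7862, 4 and 18 for all genes, members and other IGF axis genes. No pattern shared by libraries of the same letter was seen. Same-letter deviations correlated by -0.07, 0.01 and -0.06 across 9204 genes, and those of different letters by -0.02 to 0.08. With 3 libraries per group this cannot show whether libraries of the same letter were handled together. The block changed no call of a member or of the list genes named by the rule. Depth limits IGFBP1, IGFBP2, IGFBP5 and IGF1, which had at most 4 counts in any library. For IGF1 the exon bases it shares with HELLPAR are a further limit.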

Other observations

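The IGF axis genes counted above include 6 regulators of IGF2 or its mRNA, of which 4 were tested and 3 were called, where 56% of all genes tested were called. IGF2BP2 and IGF2BP3, which encode RNA-binding proteins named for their binding to IGF2 mRNA, fell from 123.2 ± 2.27 to 81.7 ± 2.67 CPM and from 45.9 ± 2.68 to 31.3 ± 0.714 CPM (SD, n = 3 per group), with log2 fold changes of -0.59 and -0.55. IGF2BP1 had at most 2 counts in any library. HMGA2, a chromatin protein that raises IGF2BP2 transcription in embryonic tissue, rose from 29.6 ± 0.902 to 65.8 ± 1.62 CPM (log2 change 1.15, adjusted p = 8.63e-49). PLAG1, a transcription factor gene known to activate IGF2, did not pass the test, with 12.1 ± 0.660 and 12.1 ± 0.850 CPM. IGF2BP3 shares 17.9% of its exon bases with MALSU1, which lies on the other strand and had 109% as many reads counted.

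The 2 genes of cell surface proteins reported to bind IGFBP3, also among those counted above, did not pass the test. TMEM219 had 27.7 ± 1.29 CPM in DMSO and 30.5 ± 1.26 CPM with AS1842856, and LRP1 had 89.6 ± 7.95 and 85.3 ± 5.23 CPM (SD, n = 3 per group).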
